A study of Mus musculus with 12 samples.

Results

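The comparison concerned CpG island methylation in CC9pahari ES cells against CC9mus ES cells. It used the 6 arrays whose titles name these lines, 3 replicates of each, of 12 arrays in the series, and the other 6 arrays belong to CC9spretus and CC9dunni. Both lines derive from CC9.3.1, an ES cell line from a 129SvEv-Gpi1c(129S6) embryo, and were made by fusing enucleated cells to CC9.3.1 cells depleted of their own mitochondria. CC9pahari carries mtDNA of Mus pahari, and CC9mus carries mtDNA of Mus musculus, the type of the parental line. Cells of both lines were grown on feeder cells with LIF and held for 48 h without feeders before DNA was taken. The series describes the 3 samples of a line as biological replicates. The sources used here do not say how many fused clones stand behind a line, so a difference between these lines cannot be told apart from a difference between clones. The arrays of this series carry no mitochondrial probes and measure no expression, so neither the mtDNA type nor ES cell markers were checked here.

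Methylation of cytosine in CpG pairs is copied at each cell division, and a methylated promoter is as a rule silent. CpG islands are stretches rich in CpG that mostly stay unmethylated in ES cells, while most of the genome outside them is methylated. Known exceptions are islands on the inactive X chromosome, islands of germline genes and the control regions of imprinted genes, which carry methylation on the allele of a single parent. In methylated DNA immunoprecipitation (MeDIP) an antibody to 5-methylcytosine (5mC) enriches methylated fragments, called the IP fraction here. Cy5 marked the IP fraction and Cy3 the unenriched input DNA on each array, with no exchange of dyes.

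Each array measured 88737 probes of 45 to 60 bp. Values are log2(IP/input), centred on the median of the array, so that 0 is the typical island probe of that array and a higher value is a higher methylation signal. Positions are those of mouse build mm9, which 88411 probes had. Probes separated by at most 1000 bp were joined into 14586 loci, of which 13469 held at least 3 probes, and the value of a locus is the mean of its probes. Loci are named by position, since gene names were not used here. The question was where the island methylation signal of the line with the most distant mtDNA differed from that of the line with its own type of mtDNA.

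The arrays differed most in how far their values spread. The standard deviation over probes was 1.09, 1.098 and 1.22 on CC9pahari replicates 1, 2 and 3. It was 0.53 on CC9mus replicate 1, 1.85 on replicate 2 and 2.01 on replicate 3. The CC9pahari arrays thus lay close together, while CC9mus held both the narrowest and the widest array of the 6. The mean standard deviation was 1.14 ± 0.07 (SD, n = 3) in CC9pahari and 1.47 ± 0.81 (SD, n = 3) in CC9mus (two-sided exact permutation test over 20 splits, p = 0.4, where the smallest possible p is 0.1). On the CC9pahari arrays 83.8% to 93.1% of probes had an IP signal well above background, against 98.6%, 75.2% and 88.3% on CC9mus replicates 1, 2 and 3. All CC9mus arrays were scanned on a day that held no other line, replicates 1 and 2 on a shared slide. CC9pahari replicates 1 and 2 shared a slide and came from an earlier scan period, and replicate 3 came from the later period of the CC9mus arrays, on another day. Scan day and line therefore cannot be told apart in full, and only CC9pahari replicate 3 could be set against CC9mus within a period.

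**Figure D1:**
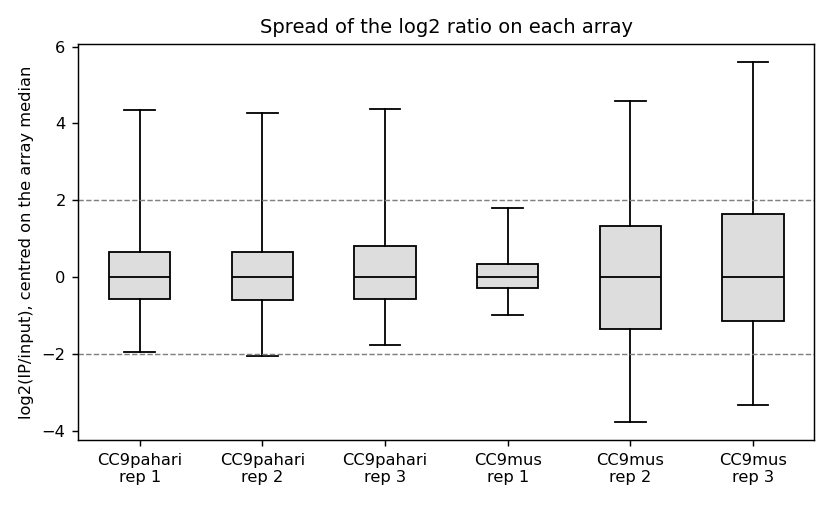
Centred log2(IP/input) over the probes of each of the 6 arrays: the line in each box is the median, the box spans the 25th to the 75th percentile, the whiskers reach the 1st and 99th percentiles, and the dashed lines mark 2 and −2. The box of CC9mus replicate 1 is the narrowest and those of CC9mus replicates 2 and 3 are the widest, with the CC9pahari arrays between them.

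Across probes, Pearson's r was 0.93 between CC9pahari replicates 1 and 2 and 0.80 to 0.81 between each of these and replicate 3. It was 0.67 to 0.81 among the CC9mus arrays and 0.61 to 0.77 between arrays of the 2 lines. These describe the arrays, since neighbouring probes share fragments and are not independent. The closest pair, CC9pahari replicates 1 and 2, also shared slide and day.

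No single probe and no locus passed the test between the lines. Over all probes the median difference, CC9pahari minus CC9mus, was 0.12. limma on all 12 arrays called 0 of 88737 probes (0%) at an adjusted p under 0.05, with a lowest adjusted p of 0.12. At an unadjusted p under 0.05 it called 18400 probes, 20.7% of those tested, of which 9361 (10.5%) were higher and 9039 (10.2%) lower in CC9pahari. Of the 14586 loci 0 passed the adjustment (0%), and 3718 (25.5%) had an unadjusted p under 0.05. The counts changed when the narrow array was left out: without CC9mus replicate 1, limma called 28090 probes (31.7%) and 6750 loci (46.3%). That fit keeps CC9mus replicates 2 and 3, the widest arrays of the comparison, and how far unequal spread enters its calls was not tested. Once the arrays were brought to the same median absolute deviation (equal spread from here on), limma called 3509 probes (3.95%), 1524 higher and 1985 lower in CC9pahari, and 820 loci (5.62%).

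Differences were then described by whether the 3 arrays of a line all lay beyond the 3 of the other. All CC9pahari arrays lay above all CC9mus arrays at 8699 probes, 9.8% of all, and below them at 7362 probes, 8.3%. The probes higher in CC9pahari had low values, with a median line mean of 0.27 in CC9pahari and −0.61 in CC9mus, and at 181 of them the mean of CC9pahari was above 2. The lower probes had a median of −0.45 in CC9pahari and 1.09 in CC9mus, and the mean of CC9mus was above 2 at 1024 of them. A difference of more than 2 on the log2 scale was seen at 185 of the higher and at 2026 of the lower probes. At equal spread the counts were 17802 probes higher (20.1%) and 9952 lower (11.2%), and with normexp they were 2854 higher and 5241 lower of the same 88737. Were the arrays of like spread and the lines alike, each direction would hold the share of a single split among the 20 possible. Among loci of at least 3 probes, 1661 (12.3%) were higher and 942 (6.99%) lower in CC9pahari on both scales.

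Whole islands were also counted, and which direction held more of them depended on the scale. On the centred scale every probe lay apart at 50 of the 13469 loci in the lower direction (0.371%) and at 20 in the higher (0.148%). At equal spread the order turned, with 88 lower and 278 higher, as it did without CC9mus replicate 3, with 51 lower and 127 higher, while with normexp they were 28 and 4. Without CC9mus replicate 1 they were 1012 lower and 395 higher. The 50 lower loci had a median level of 1.51 in CC9mus and −0.41 in CC9pahari. At the 20 higher loci the medians were −0.99 in CC9mus and 0.13 in CC9pahari. The input signal differed between the lines by a median of −0.80 at the higher loci and of −0.009 at the lower. Of the lower loci 10 held at least 5 probes, as did 2 of the higher.

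The number of probes and islands beyond a fixed level depended on how it was counted. A mean above 2, a level taken from the log2 threshold of the study's methods and called hypermethylation here, was reached by 4183 probes (4.71%) in CC9pahari and 8330 probes (9.39%) in CC9mus. Both lines shared 3560 of them, which is most of the CC9pahari probes. Of the CC9pahari probes 3167 were above 2 on all 3 arrays (75.7%), against 611 of the CC9mus probes (7.33%), since 643 of these reached 2 on CC9mus replicate 1. A mean below −2, hypomethylation, was reached by 110 probes (0.124%) in CC9pahari and 2882 (3.25%) in CC9mus. None of the latter was below −2 on CC9mus replicate 1. Without CC9mus replicate 3, in turn, CC9mus had 3797 hypermethylated probes, fewer than the 4183 of CC9pahari. At equal spread the order turned, with 5151 hypermethylated probes in CC9pahari and 3318 in CC9mus, and 365 and 266 hypomethylated. The methods also filter on a Z-score among probes of like melting temperature, and with a Z-score beyond 5, taken here over all probes of an array, required as well, 87 probes were hypermethylated in CC9pahari and 17 in CC9mus. By locus, 986 of the 13469 loci of at least 3 probes were above 1 on every CC9pahari array and 420 on every CC9mus array. A level of 1 is harder to reach on CC9mus replicate 1, whose 99th percentile over probes was 1.79. On the CC9pahari arrays that percentile was 4.27 to 4.37.

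The probes hypermethylated in CC9mus alone numbered 4770, with medians of 0.85, 0.82 and 1.42 on the CC9pahari arrays and 0.72, 2.58 and 3.86 on the CC9mus arrays. The median on CC9mus replicate 1 thus lay below that of every CC9pahari array. At 617 of these probes the mean of CC9pahari was below 0. The 623 probes hypermethylated in CC9pahari alone had medians of 2.48, 2.39 and 2.55 on the CC9pahari arrays and 0.31, 1.78 and 2.69 on the CC9mus arrays. In both classes the medians of the lines overlapped. The mean of CC9pahari was more than 2 above that of CC9mus at 361 probes (0.407%) and more than 2 below it at 2429 (2.74%), counts that moved to 2722 and 6981 without CC9mus replicate 1, and to 844 and 540 without replicate 3. They were 1287 above and 737 below at equal spread, and 67 and 141 with normexp.

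The probes were also sorted by their mean in CC9spretus and CC9dunni, which entered neither side of the comparison. Some arrays of those lines shared a scan day with CC9pahari, and none did with CC9mus. The 1543 probes above 4 in those lines had medians of 4.44, 4.35 and 4.23 on the CC9pahari arrays and of 1.60, 4.22 and 5.38 on the CC9mus arrays. At none of them did all CC9pahari arrays lie below all CC9mus arrays, and at 4.86% they lay above. Among the 30797 probes between 0 and 1 the share was 15.5% above and 7.22% below. Among the 34609 probes between −1 and 0 it was 9.70% above and 11.5% below, and among the 10466 between −2 and −1 it was 1.28% above and 9.02% below. The narrow CC9mus replicate 1 had a median of −0.36 between −2 and −1 and of 1.60 above 4. CC9pahari could thus hardly lie above all CC9mus arrays at low probes, or below them all at high ones. The shares therefore describe the spread of that array as well as the lines. Probes with a high methylation signal in the other lines thus also had one in CC9pahari and in CC9mus replicates 2 and 3. On CC9mus replicate 1 their median of 1.60 was close to the 99th percentile of that array, 1.79. They were therefore high for that array too.

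Against this general picture, 6 islands stood out, and they were picked after their values were seen. They are the loci of at least 3 probes whose mean was above 1 on every CC9mus array and below 1 on every CC9pahari array, 6 of 13469 (0.0445%). For comparison, 400 loci were above 1 on all 6 arrays. The 6 loci lie on chromosomes 6, 7, 10, 11, 12 and 17 and hold 44 probes. On all 44 probes every CC9mus array was above 1, on 37 every CC9pahari array was below 1, and on 40 the arrays of the lines did not overlap. Over the 6 loci the median was 1.87, 4.40 and 6.16 on CC9mus replicates 1, 2 and 3, and 0.09, 0.00 and 0.23 on the CC9pahari arrays. These loci are all among the 8 that the naming rule gave for the lower direction, ordered by the gap between the lowest CC9mus and the highest CC9pahari array.

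The first was chr12:110766379-110766726, with 4 probes over 348 bp. Its values were 3.45, 6.99 and 7.68 in CC9mus replicates 1, 2 and 3, and 0.20, 0.09 and 0.59 in CC9pahari. The gap of 2.86 between the lines was wider than the whole range of the CC9pahari arrays, and CC9mus replicate 1, narrow as it was, lay far above all of them. In limma the difference was −5.75 ± 0.97 (SE), with an adjusted p of 0.13, and of 0.04 at equal spread. The IP was well above background at 9 of 12 CC9pahari spots, so the difference rests in part on bounds, and it was −3.38 after normexp. The 4 probes were each apart, with values of 3.08 to 8.05 on the CC9mus arrays and −0.44 to 0.94 on the CC9pahari arrays.

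The locus lies in a stretch of 19 islands at chr12:110030331-111977193, of which 4 lay lower in CC9pahari with no overlap, this locus included, 1 lay higher and 14 overlapped. Over all loci 7.73% lay lower and 13.7% higher on this scale. At 111425598-111427982, with 21 probes, the values were 0.49, 2.13 and 3.36 in CC9mus and 0.15, 0.10 and 0.44 in CC9pahari. At 111515954-111518227, with 15 probes, they were 0.31, 1.65 and 3.77 in CC9mus and −0.29, −0.33 and −0.28 in CC9pahari. The arrays did not overlap at either locus, and the size of the CC9mus values differed widely by array. Other islands of the stretch were methylated in both lines, with means of 3.19 in CC9pahari and 3.16 in CC9mus at 110065034-110065549 and of 2.03 and 3.05 at 110697905-110698305. The island higher in CC9pahari, 111684724-111685939, was at 0.09, 0.12 and 0.35 in CC9pahari and 0.01, −0.75 and −0.17 in CC9mus. The stretch was looked at after the first locus was known.

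On chromosome 7, the locus chr7:6682111-6683212 held 9 probes over 1102 bp. It was at 1.81, 4.27 and 5.91 in CC9mus and at −0.32, −0.39 and −0.38 in CC9pahari. The 3 CC9pahari arrays were almost equal, and all 9 probes were apart in the same direction. The limma difference was −4.36 ± 0.91 (SE), with an adjusted p of 0.13, and of 0.04 at equal spread. The IP was well above background at 20 of 27 CC9pahari spots, so the difference rests in part on bounds, and it was −2.83 after normexp. The islands on either side, 32.8 kb before and 247 kb after, overlapped between the lines, with differences of −0.70 and 0.83.

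At chr11:22872000-22873052, with 9 probes, CC9mus was at 2.07, 5.33 and 6.56 and CC9pahari at −0.44, −0.90 and 0.00. All 9 probes were apart. The limma difference was −5.10 ± 0.96 (SE), with an adjusted p of 0.13, and of 0.03 at equal spread. The IP was well above background at 17 of 27 CC9pahari spots, the lowest share among the 6 loci, and the difference was −2.91 after normexp. The next island, 8.83 kb away, had means of 0.10 in CC9mus and −0.26 in CC9pahari and overlapped between the lines.

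At chr17:12934260-12935460, the locus of 10 probes over 1201 bp was at 1.57, 4.09 and 6.34 in CC9mus and at −0.03, −0.08 and −0.05 in CC9pahari, with 9 of its probes apart. The island 234 kb before it was lower in CC9pahari as well, without overlap and by −1.67, and the one 26.4 kb after it overlapped, with a difference of −1.12. At chr10:12810275-12811158, with 7 probes, the values were 1.93, 4.53 and 5.98 in CC9mus and 0.37, 0.22 and 0.75 in CC9pahari. The locus chr6:58856617-58857246, with 5 probes, was at 1.52, 4.26 and 5.81 in CC9mus and at 0.42, 0.42 and 0.45 in CC9pahari, and the island 74.7 kb before it was higher in CC9pahari without overlap, by 0.55. CC9mus replicate 1 was the lowest of its line at all of them, and the choice of the loci placed it above every CC9pahari array. Their limma differences were −4.05 ± 0.98, −3.70 ± 0.83 and −3.43 ± 0.93 (SE). The adjusted p in limma was 0.13 for each, and 0.047, 0.045 and 0.088 at equal spread. After normexp background correction, which raises dim signals, the differences of the 6 loci were −2.72 to −3.38. The IP was well above background at 104 of the 132 CC9pahari spots of these loci and at all 132 CC9mus spots.

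The other lines, which have mtDNA of Mus spretus and Mus dunni, gave further values for the 6 loci. In CC9spretus the 6 loci had medians of 2.40, 4.02 and 2.10 over its replicates. In CC9dunni the medians were 1.71 and 1.71 on replicates 1 and 2, and 0.24 on replicate 3. CC9dunni replicate 3 and CC9spretus replicate 3 were scanned on the same day as CC9pahari replicate 3. CC9dunni replicate 3 lay above every CC9pahari array on chromosomes 10, 17, 6 and 7, at 1.22, 0.37, 1.53 and 0.11, within them on chromosome 11 and below them on chromosome 12. CC9spretus replicate 3 was at 1.53 to 3.63, above every CC9pahari array at all 6 loci. Whether CC9pahari differed from those lines was not tested.

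The rule named 2 more loci in the lower direction. At chr3:53959830-53960267, with 4 probes, CC9mus was at 0.56, 1.43 and 1.55 and CC9pahari at −0.86, −0.78 and −0.53. The IP was there well above background at 3 of 12 CC9pahari spots and 10 of 12 CC9mus spots, so most of the CC9pahari values are bounds and no difference is given, and after normexp the lines lay closer. CC9spretus with −0.37 ± 0.19 and CC9dunni with −0.13 ± 0.40 (SD, n = 3) lay nearer CC9pahari than CC9mus. At chr5:74042369-74042911, with 4 probes, CC9mus was at 0.40, 1.79 and 3.87 and CC9pahari at −0.57, −1.25 and −0.56. The other lines lay near CC9pahari there too, with means of −0.97 ± 0.20 in CC9spretus and −0.85 ± 0.39 in CC9dunni (SD, n = 3).

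**Figure D2:**
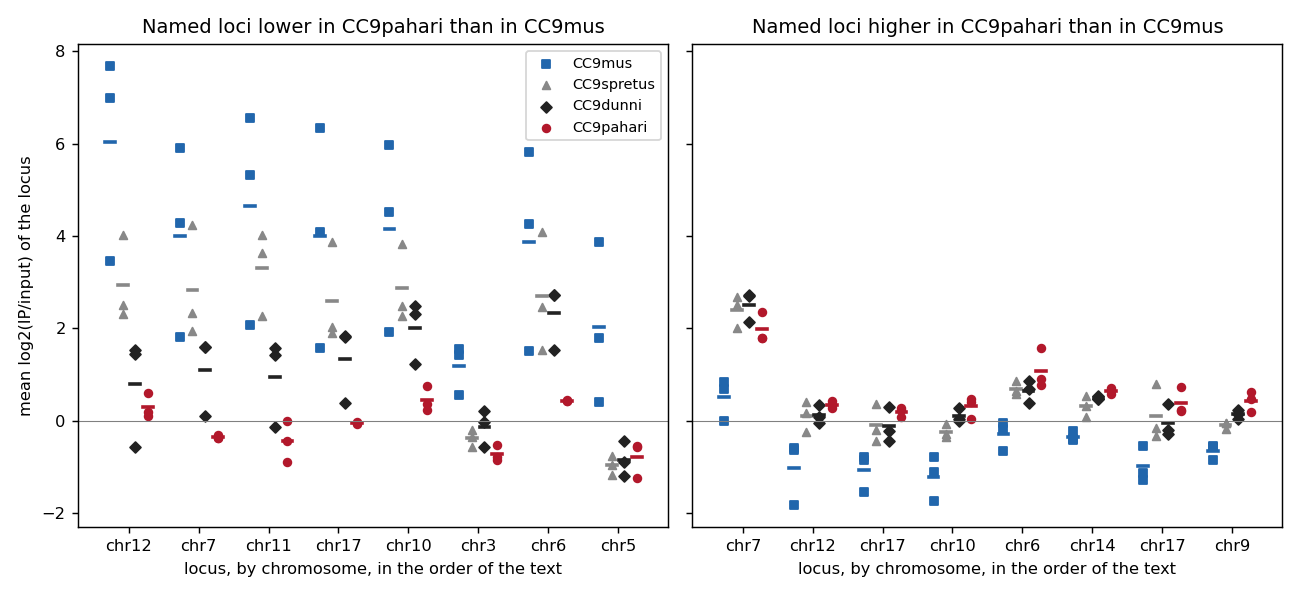
Mean log2(IP/input) of the 16 named loci (y axis) for every array of the 4 lines, with horizontal ticks at the line means: the 8 loci lower in CC9pahari on the left and the 8 higher on the right, each labelled by its chromosome. At the first 5 loci on the left CC9mus reaches 5.91 to 7.68 while CC9pahari stays between −0.90 and 0.75, and on the right the locus on chromosome 7 is the one at which CC9pahari has the highest mean.

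In the higher direction the named loci differed by less. At chr7:106497298-106497775, with 5 probes over 478 bp, CC9pahari was at 1.80, 1.79 and 2.35 and CC9mus at −0.02, 0.69 and 0.84. CC9spretus with 2.40 ± 0.35 and CC9dunni with 2.51 ± 0.33 (SD, n = 3) lay near CC9pahari, so that CC9mus was the line apart. The limma difference was 1.47 ± 0.29 (SE), with an adjusted p of 0.13, and of 0.01 at equal spread, and it was 0.61 after normexp. Of its probes 4 were apart, and the largest difference was 2.27, at chr7:106497298-106497342.

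The other 7 were islands with values around the array median. At chr12:82695946-82696304 CC9pahari was at 0.27, 0.33 and 0.42 and CC9mus at −0.60, −1.83 and −0.65. At chr17:21146020-21146258 the values were 0.22, 0.28 and 0.08 in CC9pahari and −0.79, −1.54 and −0.85 in CC9mus. At chr10:92916156-92916697 they were 0.41, 0.48 and 0.04 in CC9pahari and −0.79, −1.73 and −1.12 in CC9mus. Each of these CC9mus arrays was below 0 and each CC9pahari array above it.

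At chr6:137702977-137703256 CC9pahari was at 1.57, 0.77 and 0.90 and CC9mus at −0.05, −0.18 and −0.66. At chr14:70750798-70751251 the values were 0.66, 0.70 and 0.57 in CC9pahari and −0.42, −0.23 and −0.40 in CC9mus. At chr17:35373372-35373710 they were 0.21, 0.22 and 0.72 in CC9pahari and −0.54, −1.12 and −1.28 in CC9mus, and the island 1.15 kb before it did not overlap either, with means of 0.34 and −0.86. At chr9:103904643-103905549 they were 0.47, 0.62 and 0.20 in CC9pahari and −0.56, −0.85 and −0.55 in CC9mus. A single outlier spot was missing at each of the last 2 loci. The limma differences of these 7 loci ran from 0.99 to 1.52, with an adjusted p of 0.13 for each. After normexp they were 0.74 to 1.12, and the difference fell from 1.37 to 0.79 at the locus on chromosome 6 and from 1.37 to 0.87 at chr17:35373372-35373710. At each of these 7 loci the means of CC9spretus and CC9dunni lay between those of CC9mus and CC9pahari and nearer to CC9pahari, from −0.24 to 0.69.

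The named higher loci differed in the input signal as well, while at the 6 lower loci the difference was larger in the IP than in the input. At 7 of the 8 higher loci the input signal was lower in CC9pahari, with differences of −0.45 to −1.99 on the log2 scale, and at chr6:137702977-137703256 the IP signal was lower as well, with a difference of −0.64. At the rest of these 7 the IP differed by 0.13 to 0.56. The input difference was the larger in size at all 7 but chr14:70750798-70751251. The higher locus without a lower input was chr7:106497298-106497775, where the input differed by 0.19 and the IP by 1.63. At the 6 lower loci the IP signal differed by −3.38 to −4.94 and the input by −0.50 to 0.84. Over all 8699 probes higher in CC9pahari, the median difference was 0.47 in the IP and −0.43 in the input, and the input was lower on all CC9pahari arrays at 4837 of them (55.6%, against 28.5% of all probes). Over the 7362 lower probes it was −1.51 in the IP and 0.12 in the input, and the input was higher on all CC9pahari arrays at 2625 of them (35.7%, against 22.9% of all probes). The part of the input in these ratios was not tested.

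**Figure D3:**
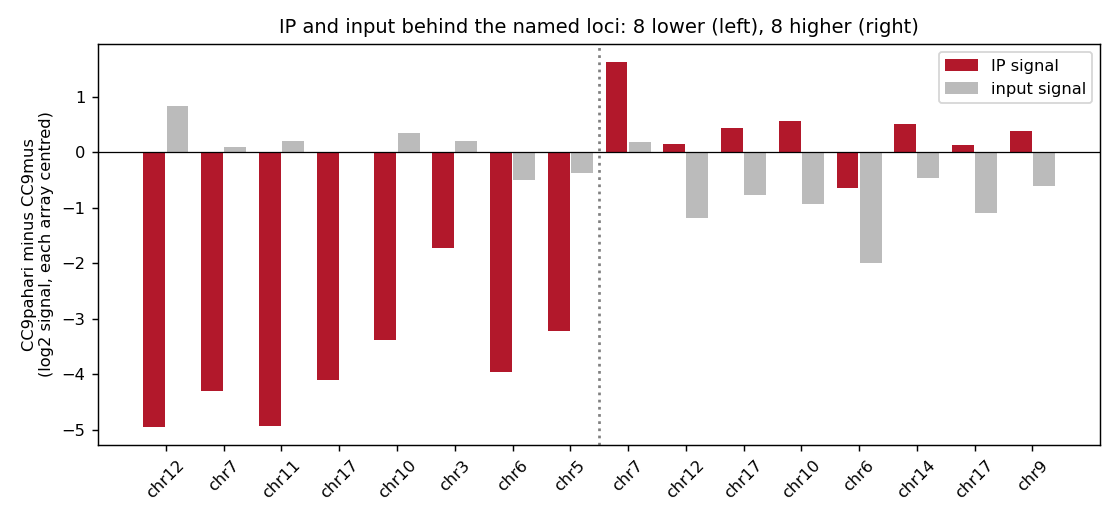
Difference between the lines (CC9pahari minus CC9mus, means of 3 arrays, log2 scale) in the IP signal (red) and the input signal (grey) at the 16 named loci, by chromosome. Of the 8 loci on the left, lower in CC9pahari, the 7 other than that on chromosome 3, where most CC9pahari values are bounds, show IP differences of −3.22 to −4.94, while at 7 of the 8 on the right the grey bar points down.

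**Figure D4:**
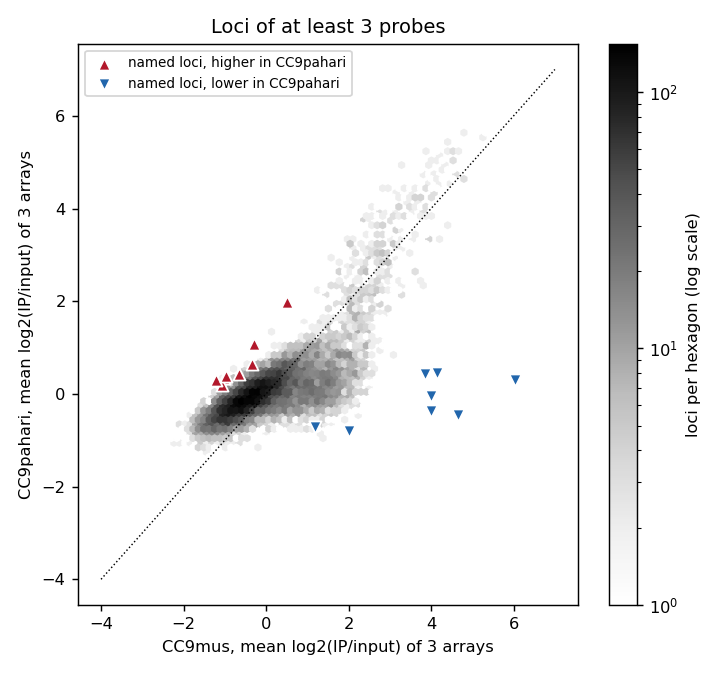
Mean log2(IP/input) of CC9pahari (y axis) against CC9mus (x axis) for the 13469 loci of at least 3 probes, shaded by the number of loci, with the named loci as triangles and the line of equal values dotted. The 6 loci with a CC9mus mean of 3.86 to 6.04 and a CC9pahari mean of −0.45 to 0.45 lie to the right of the main cloud.

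In the opposite sense, 5 of the 13469 loci (0.0371%) were above 1 on every CC9pahari array and below 1 on every CC9mus array. One of them was the named locus on chromosome 7. The broadest was chr5:138226787-138229763, with 19 probes, at 1.36, 1.30 and 1.37 in CC9pahari and −0.10, −0.21 and 0.88 in CC9mus. The one with the highest CC9pahari mean among the rest was chr5:109985927-109986155, with 3 probes, at 2.31, 2.27 and 1.17 in CC9pahari and −0.60, −0.83 and 0.53 in CC9mus. The others were chr2:167363407-167364582 and chr11:58052895-58053296, with CC9pahari values of 1.02 to 1.53 and CC9mus values of −0.18 to 0.85. These loci were also picked after their values were seen.

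Single probes outside the named loci were given by the same rule where their signals were bright in the higher line. A_68_P29218716 (chr13:91599885-91599929) was at 3.34, 3.29 and 4.38 in CC9pahari and at 0.35, 0.74 and 1.57 in CC9mus. A_68_P26817067 (chr9:108757003-108757048) was at 2.65, 2.64 and 1.82 in CC9pahari and at 0.04, 0.13 and 0.01 in CC9mus, with a difference of 2.31 that was 0.86 after normexp. The other named higher probes lie at chr8:11561742-11561794 and chr12:25365989-25366033, with differences of 3.23 ± 0.59 and 3.41 ± 0.53 (SE). At the probe on chromosome 12 CC9pahari was at 1.81, 1.83 and 0.07 and CC9mus at −1.60, −2.83 and −2.09. There the input differed by −2.34 and the IP by 1.04, so the input held the larger part. At the probe on chromosome 8 the input differed by −0.73 and the IP by 2.47. In the lower direction, A_68_P29648023 (chr14:61665196-61665244) was at −1.44, −1.28 and −1.997 in CC9pahari and at 0.78, 2.14 and 3.17 in CC9mus. A_68_P28178588 (chr11:119409654-119409706) was at −2.20, −2.11 and −2.18 in CC9pahari and at −0.12, −0.27 and 0.49 in CC9mus. The IP of these lower probes was not well above background on any CC9pahari array, so their CC9pahari values are bounds and no fold is given. The same held for the named lower probe at chr9:55394390-55394443, and the last, at chr7:150154201-150154245, was well above background on 1 of 3 CC9pahari arrays. After normexp the lines hardly differed at A_68_P28178588, and the differences of the other lower probes were far smaller than before.

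The scan period was taken into account by setting CC9pahari replicate 3 alone against the CC9mus arrays of its period. At the 6 lower loci the difference of this array from the CC9mus mean was −3.39 to −5.45, a direction that the choice of these loci fixed. Over all probes it lay above all CC9mus arrays at 21.9% of probes and below them at 14.5%, against 20.4% to 20.7% and 19.01% to 19.25% for replicates 1 and 2. With no difference and arrays of like spread, it and the 3 CC9mus arrays would each be highest, and each be lowest, equally often. None of these shares exceeds that. With a block for the scan period, limma called 0 probes and 2 loci, and with equal spread as well, 12968 probes (14.6%) and 3416 loci (23.4%). The 2 loci were chr6:97155509-97155670, with a difference of 1.83 ± 0.19 (SE), and chr9:44863156-44863500, with 1.80 ± 0.20 (SE), each with an adjusted p of 0.04 in limma. Neither was among the named loci, and the first, of 2 probes, lies in a window of chromosome 6 in which the input was lower in CC9pahari, with a difference of −0.52.

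By chromosome, the ratio of chromosome 8 was lower in CC9pahari. Its median was −0.16, −0.16 and −0.13 on the CC9pahari arrays and 0.02, 0.07 and 0.11 on the CC9mus arrays. The difference was −0.22, and the arrays did not overlap (two-sided exact permutation test, p = 0.1, adjusted over 20 chromosomes p = 0.4, where 0.1 is the smallest possible p). The ratio medians did not overlap on 5 of the 20 chromosomes, 2 of them higher in CC9pahari, so these share this p. Of its probes 12.3% lay apart in the lower direction and 4.99% in the higher, against 8.3% and 9.8% over all probes. On chromosome X the medians were 0.36, 0.35 and 0.36 in CC9pahari and 0.01, 0.42 and 0.29 in CC9mus, so the lines overlapped there, and 14.1% of its probes lay apart in the higher direction and 4.41% in the lower.

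The input signal of chromosome 8 was higher in CC9pahari, opposite to the ratio. Taken against the mean of each probe over the 12 arrays, its median was 0.21, 0.21 and 0.30 in CC9pahari and −0.19, −0.19 and −0.15 in CC9mus, a difference of 0.41 (exact permutation test, p = 0.1, adjusted p = 0.125). On the same basis the IP signal of chromosome 8 was higher too, at 0.15, 0.14 and 0.23 in CC9pahari and −0.19, −0.09 and −0.17 in CC9mus. The input was raised by 0.34 to 0.55 in 13 of the 14 windows of 10 Mb, with no array overlapping. The input medians did not overlap on 16 of the 20 chromosomes, 1 of them higher in CC9pahari, so most chromosomes share this p. On chromosome 6 the input was lower in CC9pahari, at −0.09, −0.08 and −0.09 against 0.28, 0.30 and 0.32 in CC9mus, a difference of −0.39 (exact permutation test, p = 0.1, adjusted p = 0.125). There the shift lay in the 9 windows between 60 and 150 Mb, with differences of −0.38 to −0.68. In CC9spretus and CC9dunni the chromosome 6 values were −0.07 to −0.14, near those of CC9pahari, so CC9mus was the line apart, while on chromosome 8 CC9spretus was at 0.06 to 0.13 and CC9dunni at −0.10 to −0.16. A ratio divides by the input, and the named higher locus at chr6:137702977-137703256 lies in these windows. Of the 2573 probes beyond 60 Mb on chromosome 6, 14.7% lay apart in the higher direction and 8.43% in the lower. How far the input shifts set the ratios of these chromosomes was not tested.

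**Figure D5:**
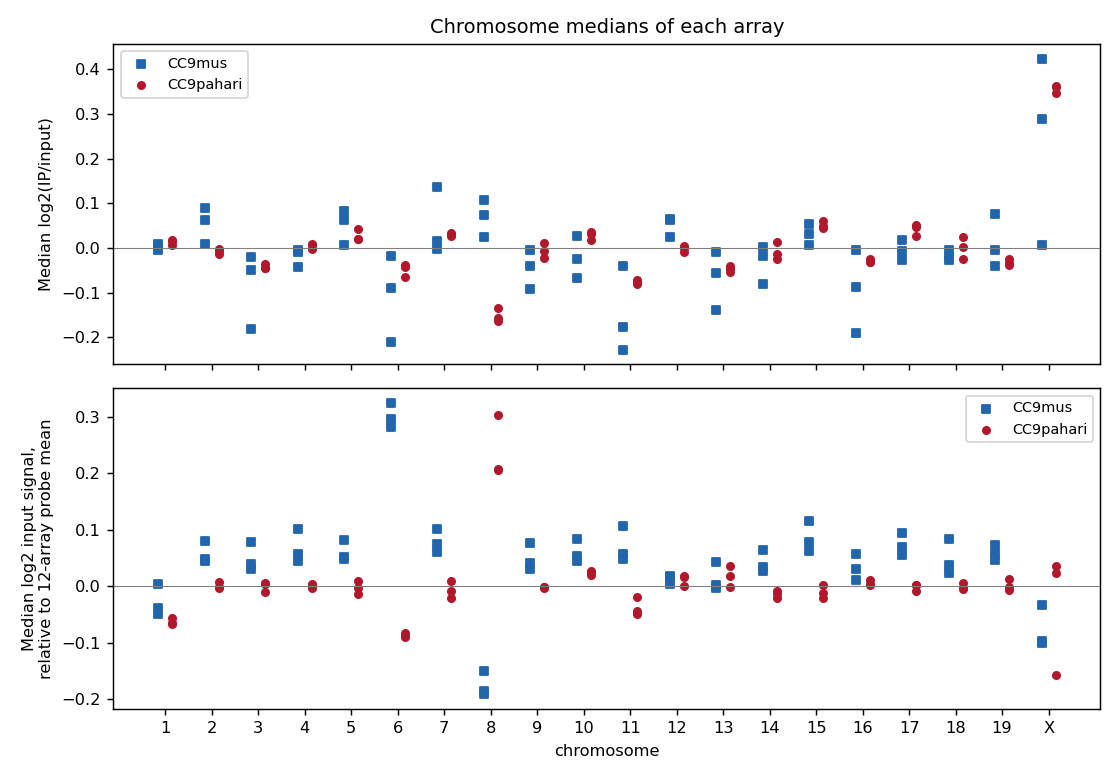
Median of each array over the probes of each chromosome: log2(IP/input) above, and below it the log2 input signal relative to the mean of each probe over the 12 arrays, with CC9mus as blue squares and CC9pahari as red circles. On chromosome 8 CC9pahari lies below CC9mus in the ratio and above it in the input, and on chromosome 6 CC9mus has an input of 0.28 to 0.32 against −0.09 to −0.08 in CC9pahari.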

How the data were processed

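CpG island methylation was measured by MeDIP in 6 samples, 3 each of CC9pahari and CC9mus, on Agilent 2-colour arrays, grouped by the titles of the samples. From 3 μg of sonicated DNA, IP DNA (Cy5, 120 to 250 ng per the labels) and input DNA (Cy3, 400 ng) were hybridised. The authors extracted the scans in Agilent Feature Extraction (11.0.1.1 per the file headers, 11.0.1.0 in the submitters' processing notes), and the deposited processed signals are intensity values after background subtraction and dye normalisation. The table of the whole series holds the deposited log10 ratios of the same arrays. The later steps of the authors in other software were not repeated.

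From the intensities, log2(IP/input) was computed for probes that were not controls, spots marked as outliers were set to missing (800 probes lacked a value on at least 1 of the 6 arrays), and the median of each array was subtracted. Differences were tested in limma 3.58.1 (R 4.3.3) over all 12 arrays with 4 line means, and p-values were Benjamini-Hochberg adjusted over all probes or loci. Python 3.11.15, numpy 2.4.6, pandas 2.3.3 and scipy 1.17.1 were used.

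The named loci held at least 3 probes, had all arrays of a line beyond the other on the centred scale and at equal spread, and were the first 8 in each direction by the gap between the lines. The named probes met the same conditions outside these loci, were well above background in the higher line and were the first 4 in each direction. These rules and the comparison were chosen with earlier results of these data known. Alternatives were ratios not centred, normexp (offset 50), the deposited ratios, equal spread, dim probes left out, each array left out, blocks for replicate number, scan period, slide and scan day, array weights, and locus gaps of 500 and 2000 bp. Lists of genes had been set but were not used, as the array files pair no probe with a gene and the annotation at hand is of another build. For the same reason no sequence is given. For arrays, the number of arrays and the signal over background limit the precision in place of depth.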

Additional observations from a re-analysis of the deposited data

How the results depend on the processing

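The 0 probes called by limma became 3509 at equal spread, 12968 at equal spread with the scan period as a block, and 15212 with array weights. The 0 loci became 820 at equal spread, 1 with the replicate block, 2 with the scan period as a block and 3416 with that block at equal spread. Leaving out arrays gave 0 to 28090 probes and 0 to 6750 loci, both highest without CC9mus replicate 1. The call without CC9mus replicate 2 was at chr12:111517609-111517657, a probe with no value on CC9mus replicate 1. It thus rests on 1 CC9mus array, with a difference of −5.18. All other alternatives run with more than 1 array per line called 0 probes and 0 loci, among them the deposited ratios and normexp. The later scan period alone holds 1 CC9pahari array, so a test within it cannot decide whether probes differ, and no count is given. The 8356 probes hyper- or hypomethylated in exactly 1 of the 2 lines became 1951 with normexp, 3928 at equal spread, 2715 with every array beyond the threshold and 92 with a Z-score beyond 5 as well, and 5279 to 21495 without single arrays. The 2790 probes with a difference beyond 2 became 208 with normexp and 1384 to 9703 without single arrays, lowest without CC9mus replicate 3 and highest without CC9mus replicate 1. The 16061 probes whose arrays did not overlap became 8095 with normexp (2854 higher and 5241 lower, against 8699 and 7362), 27754 at equal spread and 15368 with ratios not centred (6893 higher and 8475 lower). Without single arrays they were 18341 to 48525, where fewer arrays overlap less often by construction. The 70 loci with every probe apart became 32 with normexp, 366 at equal spread and 92 to 1407 without single arrays, highest without CC9mus replicate 1 (alternatives chosen after seeing the data). Of the 20 chromosomes, 5 had ratio medians that did not overlap, which became 1, chromosome 8, without centring and 5 to 14 without single arrays. Without centring, CC9mus had 4791 hypomethylated probes in place of 2882. The 24 named loci and probes kept their direction over 480 values under the alternatives, which their choice largely fixed, and 76 of these values had an adjusted p under 0.05, among them all 24 without CC9mus replicate 1. The array weights of the loci did not reach their convergence tolerance. Apart from the settings named, the cause of these changes was not tested.

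The replicate numbers were not taken as pairs. The deviations of same-numbered arrays from their line means correlated at 0.19, −0.12 and 0.13, and 1 of 3 CC9pahari arrays correlated best with its own number. With the replicate block, limma called 0 probes and 1 locus, a single probe at chr7:25733865-25733909 that has no value on CC9mus replicate 3.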
